A study of Mus musculus with 12 samples.

Results

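The transcripts described here belong to 32 genes of the pancreas measured in RNA of mouse spleen. They are 28 products of acinar cells (digestive enzymes, enzyme inhibitors and other secreted proteins) and 4 hormones of the islets, and they were picked by gene symbol from the 19376 rows of the deposited table, which held all 32. The 12 libraries fell into 4 groups of 3. Controls were untreated, and the AOS group received AOS, the oligosaccharides obtained by breaking down alginate from brown algae, at 10 mg/kg for 5 weeks. The busulfan group received the alkylating drug busulfan at 40 mg/kg in 1 dose, and the group named busulfan with AOS received that dose and then AOS at 10 mg/kg over 5 weeks. The extraction protocol names spleen tissue, while the tissue field of the labels reads only Cells. IRC is the strain named in the labels, which state no age, sex or genetic alteration. Whether separate animals gave the 3 libraries of each group is not stated. All p-values therefore reflect variation among libraries that may be technical.

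Acinar cells make up the bulk of the exocrine pancreas and store digestive enzymes as inactive precursors in zymogen granules, which are emptied into the duct system. Trypsin made from trypsinogen in the gut activates the other precursors, and inhibitors in the granule restrain it before that. Islets are small clusters of endocrine cells scattered among the acini, whose beta cells release insulin and whose alpha cells release glucagon. The tail of the pancreas lies next to the spleen. In RNA from a whole tissue, more cells of a type and more RNA per cell cannot be told apart.

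Each library held between 15051297 and 16241883 counts in all. A count of 0 allows up to 3 counts, which is 0.185 to 0.199 CPM (counts scaled to the library total). These limits and the intervals given for counts cover counting error only. All 13 markers of spleen cells, among them Cd79a of B cells and Spic of red pulp macrophages, were detected in each group, and their summed level was 2554 to 4380 CPM per library.

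The 28 acinar genes took 0.304%, 4.56% and 0.539% of all counts in AOS libraries 1, 2 and 3. In the controls the shares were 0.00308%, 0.0208% and 0.00408%. In the busulfan libraries they were 0.10%, 0.0167% and 0.00357%, and with busulfan and AOS together 0.246%, 0.0383% and 0.0178%. The 3 AOS libraries thus held the largest shares of all 12, but their own spread was wide, with AOS 2 at 15 times AOS 1 and 8.46 times AOS 3. AOS 1 was only 1.23 times the highest library outside the AOS group, library 1 of busulfan with AOS. The group means were 1.80% ± 2.39 for AOS, 0.101% ± 0.126 for busulfan with AOS, 0.0401% ± 0.0524 for busulfan and 0.00931% ± 0.00994 for control (SD, n = 3), so each SD exceeded its mean. The other groups overlapped one another: busulfan with AOS 3 lay below control 2, and busulfan 3 lay below control 3. Within busulfan the highest library was 28 times the lowest, and within busulfan with AOS 13.8 times.

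**Figure D1:**
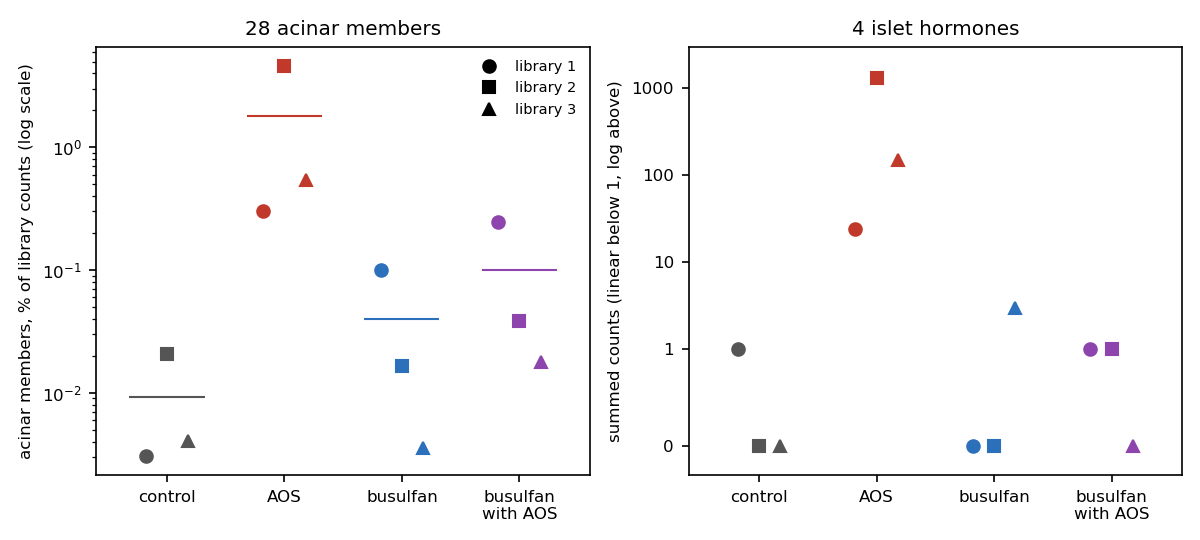
Left, the counts of the 28 acinar genes as a percentage of all counts of each library on a log axis, with lines at the group means. Right, the summed counts of 4 islet hormones per library. AOS 2 holds 4.56% against 0.00308% in control 1, and islet counts of 24 to 1303 appear in the AOS libraries against 0 to 3 in the other 9.

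The order of the libraries was shared by nearly all members. AOS 2 exceeded AOS 3 and AOS 3 exceeded AOS 1 for 31 of 32 genes, and AOS 2 was the highest of all 12 libraries for the same number. Library 1 was the highest of the busulfan group for 27 of 28 acinar genes and the highest of busulfan with AOS for 27 of 28. Library 2 was the highest control for 24 of 28. Of the 28, 10 had a count of 0 in at least 1 control.

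**Figure D2:**
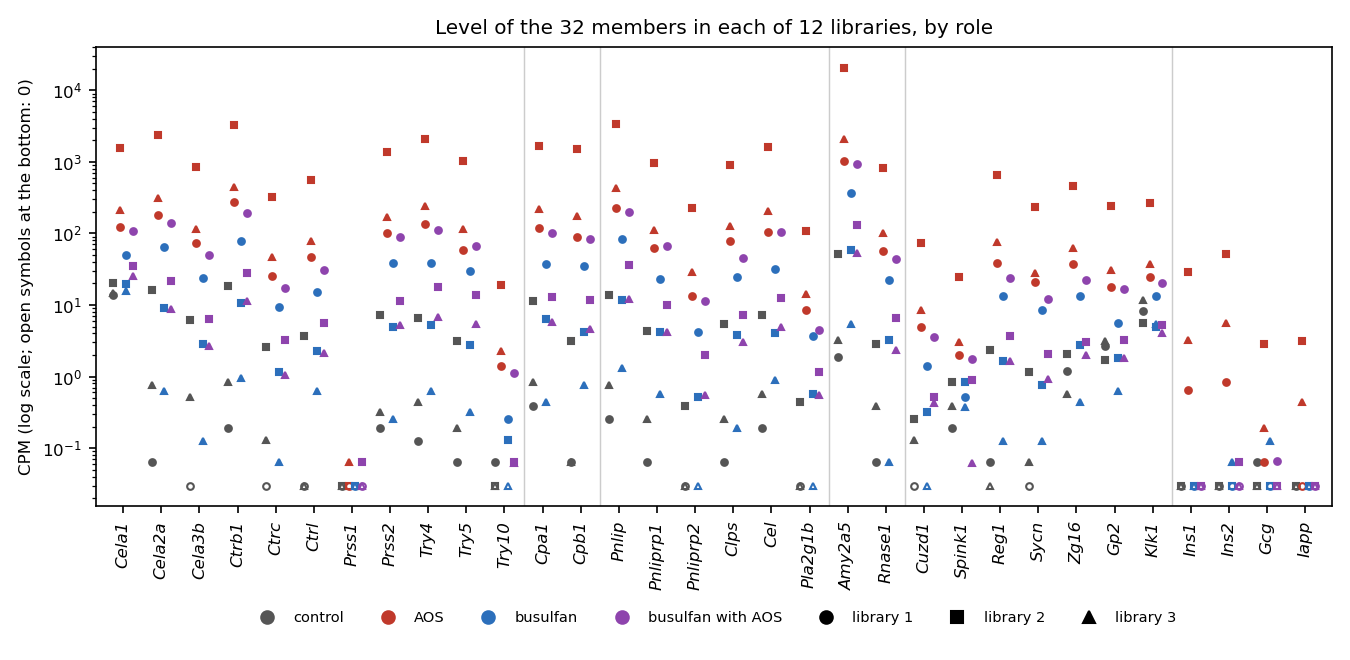
CPM on a log axis for each of the 32 genes in 12 libraries, ordered by role from serine proteases at the left to islet hormones at the right; colour gives the group, shape the library number, and open symbols at the bottom stand for 0. The acinar genes move in parallel from library to library, while Cela1, Gp2 and Klk1 have a floor in the lowest libraries and Prss1 is at 0 or 1 count throughout.

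Sequence upstream of 3 genes is shown because these genes stand for the patterns that follow: an elastase with a level of its own in every spleen library, the most abundant enzyme, and an insulin gene found in the AOS libraries alone. Each stretch is the 250 bases before the start site on the gene's strand, from RefSeq (assembly GRCm38.p6, the assembly behind mm10). Capitals mark CACCTG and TTTCCC, letters of the site bound by the acinar complex of PTF1A and RBPJL, TATAAA, the TATA box, and, for Ins1, CATCTG, an E-box of the kind NEUROD1 binds. The motifs were searched on both strands, except TATAAA, which was read on the gene's strand, and no 2 of them overlap in these windows.
Cela1, chr15:100687921-100688170, minus strand: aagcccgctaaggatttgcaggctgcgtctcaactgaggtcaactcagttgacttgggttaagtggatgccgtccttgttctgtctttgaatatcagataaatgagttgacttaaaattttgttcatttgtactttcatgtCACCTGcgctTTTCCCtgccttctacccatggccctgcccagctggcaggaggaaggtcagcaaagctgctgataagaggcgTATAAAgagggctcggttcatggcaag
Amy2a5, chr3:113258700-113258949, minus strand: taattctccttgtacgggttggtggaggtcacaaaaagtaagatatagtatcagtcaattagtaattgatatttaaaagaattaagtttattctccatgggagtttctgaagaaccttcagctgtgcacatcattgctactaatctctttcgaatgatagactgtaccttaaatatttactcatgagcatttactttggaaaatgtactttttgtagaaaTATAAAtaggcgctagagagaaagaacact
Ins1, chr19:52264047-52264296, plus strand: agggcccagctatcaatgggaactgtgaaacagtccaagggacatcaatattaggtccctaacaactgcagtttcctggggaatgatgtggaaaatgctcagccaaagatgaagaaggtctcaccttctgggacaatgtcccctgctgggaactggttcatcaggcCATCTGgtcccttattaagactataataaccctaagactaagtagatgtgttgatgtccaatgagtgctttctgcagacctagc

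RefSeq gave such a window for 25 of the 32 genes, 22 acinar and 3 islet. CACCTG occurred in 11 of the 22 acinar windows and in 17.2% of 32851 promoters of the same length, and TTTCCC in 8 of 22 and 21.9%. Both letters together stood upstream of Cel, Cela1, Cela2a, Prss1 and Prss2, 5 of 22, against 3.61% of all promoters. TATAAA occurred in 8 of 22 against 7.59%, and CATCTG in 3 of 22 acinar and 3 of 3 islet windows against 14.4%. These matches describe letters in a window and not binding.

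The trypsinogens, chymotrypsinogens and elastases are the serine proteases of the granule. Ctrb1 on chromosome 8 (111686510 to 111691010), which codes for chymotrypsinogen B, had the highest mean length-scaled level of the 11, 469 FPKM (counts scaled to gene length and library total) over the 12 libraries. Its level was 278, 3305 and 439 CPM in AOS, 0.191, 18.5 and 0.831 in control, 77.7, 10.7 and 0.949 in busulfan and 192, 28.1 and 11.2 in busulfan with AOS. Every AOS library lay above the other 9. The log2 fold change of AOS against control was 7.69 ± 2.03 (SE), with adjusted p = 0.562 in edgeR's quasi-likelihood test.

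Cela1 on chromosome 15 (100674422 to 100687920) codes for an elastase that is expressed in mice in tissues besides the pancreas. It read 122, 1579 and 212 CPM in AOS, 13.8, 20.2 and 14.9 in control, 49.5, 19.6 and 15.9 in busulfan and 109, 35.4 and 25.7 in busulfan with AOS. It differs from Ctrb1 in that no library fell below 13.8 CPM. Cela1 had the smallest p of all members in AOS against control, with a log2 fold change of 5.29 ± 1.03 (SE; adjusted p = 0.449, edgeR). In control 1 its 216 counts stood beside 1 count of Cela2a, the main pancreatic elastase 2 gene. As a share of Cela1 and Cela2a together, Cela1 made up 40.5%, 40.2% and 40.7% in the AOS libraries but 99.5% in control 1, 95.1% in control 3 (exact 95% interval 91.6% to 97.4%) and 96.2% in busulfan 3. The share was thus alike across AOS libraries that differ 15-fold in acinar content and high where that content was lowest.

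The trypsinogens Prss1, Prss2, Try4, Try5 and Try10 lie in a row on chromosome 6, inside the span of the T cell receptor beta locus. Prss1 had a single count in AOS 3 and in busulfan with AOS 2 and 0 in the other 10 libraries. Try4 read 137, 2052 and 245 CPM in AOS and 0.128, 6.56 and 0.447 in control, and Try10 1.41, 19.1 and 2.27 against 0.0638, 0 and 0. Try4 and Try5 are near-identical: of 741 coding bases, 19 differ, and the longest identical run is 274 bases. The stretch of 90 coding bases in which they differ most, bases 433 to 522 counted from the start codon, is printed from GENCODE M21 transcripts with the 5 differing bases in capitals, since the split of reads between these genes rests on such positions.
Try4: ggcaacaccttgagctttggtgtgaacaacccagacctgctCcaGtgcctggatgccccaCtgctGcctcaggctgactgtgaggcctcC
Try5: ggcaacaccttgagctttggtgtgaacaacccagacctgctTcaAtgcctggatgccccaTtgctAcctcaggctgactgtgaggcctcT

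The deposited estimates of Try4 and Try5 are fractions in several libraries, while their sum is a whole number in all 12, so some reads were divided between them. Try4 held 70.1%, 66.9% and 68.2% of the sum in AOS 1, 2 and 3. It held 62.2%, 56.5% and 56.1% in busulfan with AOS, 56.3% in busulfan 1, 65.2% in busulfan 2 and 67.7% in control 2. The values of the AOS libraries lay above those of busulfan with AOS without overlap, a pattern noticed after the values were seen and not tested. Because of the shared reads, the level of each gene alone is uncertain. Try5 read 58.7 CPM in AOS 1 and 67.7 in library 1 of busulfan with AOS, which makes it 1 of 2 tested members, with Pnliprp1, whose AOS libraries were not all above the other 9.

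The carboxypeptidases trim amino acids from the carboxyl end of peptides. Cpa1 on chromosome 6 (30639218 to 30645361) read 121, 1668 and 219 CPM in AOS, 0.383, 11.3 and 0.831 in control, 37.3, 6.28 and 0.443 in busulfan and 101, 12.9 and 5.79 in busulfan with AOS. AOS 1 and library 1 of busulfan with AOS lay close together, and the controls and the busulfan libraries overlapped. The fold change of AOS against control was 7.33 ± 1.86 on the log2 scale (SE; adjusted p = 0.553, edgeR). Cpb1, the other carboxypeptidase, followed the same order of AOS libraries with 88.0, 1518 and 176 CPM.

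Of the 6 genes of fat digestion, Pnlip, the pancreatic triglyceride lipase on chromosome 19 (58670365 to 58681799), was the highest with a mean of 265 FPKM. It read 228, 3417 and 426 CPM in AOS, 0.255, 13.6 and 0.767 in control, 82.6, 11.9 and 1.33 in busulfan and 198, 35.9 and 12.1 in busulfan with AOS. Controls and busulfan overlapped, and AOS lay above all others. Clps, the colipase that anchors lipase to fat droplets, had 79.0, 909 and 128 CPM in AOS and 0.0638, 5.48 and 0.256 in control, and Cel, the bile salt-activated lipase, 104, 1630 and 206 against 0.191, 7.13 and 0.575.

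The lipase-related gene Pnliprp2 had the largest fold change of AOS against control among the acinar genes, 9.36 ± 1.93 on the log2 scale (SE; adjusted p = 0.449, edgeR). It read 13.4, 226 and 28.5 CPM in AOS and 0, 0.382 and 0 in control, so the fold rests on 6 counts in 1 control. Pla2g1b, the secreted phospholipase A2 of the pancreas, read 8.64, 106 and 14.2 CPM in AOS, 0, 0.446 and 0 in control, 3.70, 0.577 and 0 in busulfan and 4.54, 1.15 and 0.555 in busulfan with AOS. Its fold change was 8.10 ± 1.68 (log2, SE; adjusted p = 0.449, edgeR). Both genes were at 0 counts in the same 3 libraries, controls 1 and 3 and busulfan 3.

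Amy2a5, the pancreatic alpha-amylase on chromosome 3 (113249178 to 113258699), was the most abundant member, with a mean of 1416 FPKM and a median of 64.2. It read 1025, 20553 and 2089 CPM in AOS, 1.85, 52.0 and 3.26 in control, 371, 58.3 and 5.50 in busulfan and 923, 130 and 52.8 in busulfan with AOS. AOS 1 and library 1 of busulfan with AOS were 1025 and 923 CPM, and busulfan 3 lay among the controls. The fold change of AOS against control was 8.69 ± 2.25 on the log2 scale (SE; adjusted p = 0.561, edgeR). Rnase1, the pancreatic ribonuclease, read 56.5, 824 and 102 CPM in AOS and 0.0638, 2.87 and 0.384 in control. Reads of amylase copies may also be shared: Amy2a2, Amy2a3 and Amy2a4 carried identical values in every library, from 0 to 13.5 CPM.

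Among the secreted proteins that are not enzymes of digestion, Reg1, a lectin of acinar secretion on chromosome 6 (78425983 to 78428668), had the highest mean, 103 FPKM. It read 38.3, 651 and 76.0 CPM in AOS, 0.0638, 2.36 and 0 in control, 13.2, 1.67 and 0.127 in busulfan and 23.8, 3.70 and 1.66 in busulfan with AOS. The AOS libraries lay above the other 9, with a fold change against control of 8.29 ± 1.82 (log2, SE; adjusted p = 0.449, edgeR). Zg16, a lectin of the zymogen granule membrane, read 37.6, 460 and 62.4 CPM in AOS and 1.21, 2.04 and 0.575 in control (log2 fold change 7.18 ± 1.5 SE; adjusted p = 0.449, edgeR).

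Cuzd1, a protein with CUB and zona pellucida domains found on zymogen granules, had 78, 1115 and 135 counts in AOS and 0, 4 and 2 in control (log2 fold change 7.74 ± 1.59 SE; adjusted p = 0.449, edgeR). Gp2, the granule membrane glycoprotein, read 18, 238 and 31.0 CPM in AOS and 2.68, 1.72 and 3.13 in control. Klk1, a tissue kallikrein also made in kidney and salivary gland, read 24.3, 268 and 37.3 CPM in AOS and 8.36, 5.67 and 11.6 in control. Spink1, the trypsin inhibitor of the granule, read 1.98, 24.4 and 3.08 CPM in AOS and 0.191, 0.828 and 0.384 in control. The fold changes of Gp2 (5.25), Klk1 (3.68) and Spink1 (4.37) were below the acinar median of 7.74. All 3 controls lay above busulfan 2 and 3 for Klk1, which had 65 counts in its lowest library.

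The make-up of the acinar counts was compared over the 20 genes with at least 20 counts in each of the 9 libraries that held at least 2500 acinar counts. Between 2 libraries the median gene differed by 0.08 to 0.48 on the log2 scale after the difference in total was removed (36 pairs). The 3 pairs of AOS libraries lay at 0.08 to 0.18, with all 20 genes within 1 log2 unit, although their acinar totals differ up to 15-fold. AOS 2 and library 1 of busulfan with AOS differed by a median of 0.13, also with all 20 genes within 1 log2 unit. The largest departures were those of Cela1 and Klk1, for example 2.21 for Cela1 between AOS 2 and busulfan with AOS 3. Amy2a5 made up 34.7%, 43.6% and 38.1% of the acinar counts in AOS, 37.1%, 33.2% and 30.9% in busulfan with AOS, and 6.18%, 8.12% and 15.2% in control 1, control 3 and busulfan 3. In those last 3 libraries Cela1 and Klk1 together took most of the acinar counts, with Cela1 at 46.1%, 36.8% and 43.7%.

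**Figure D3:**
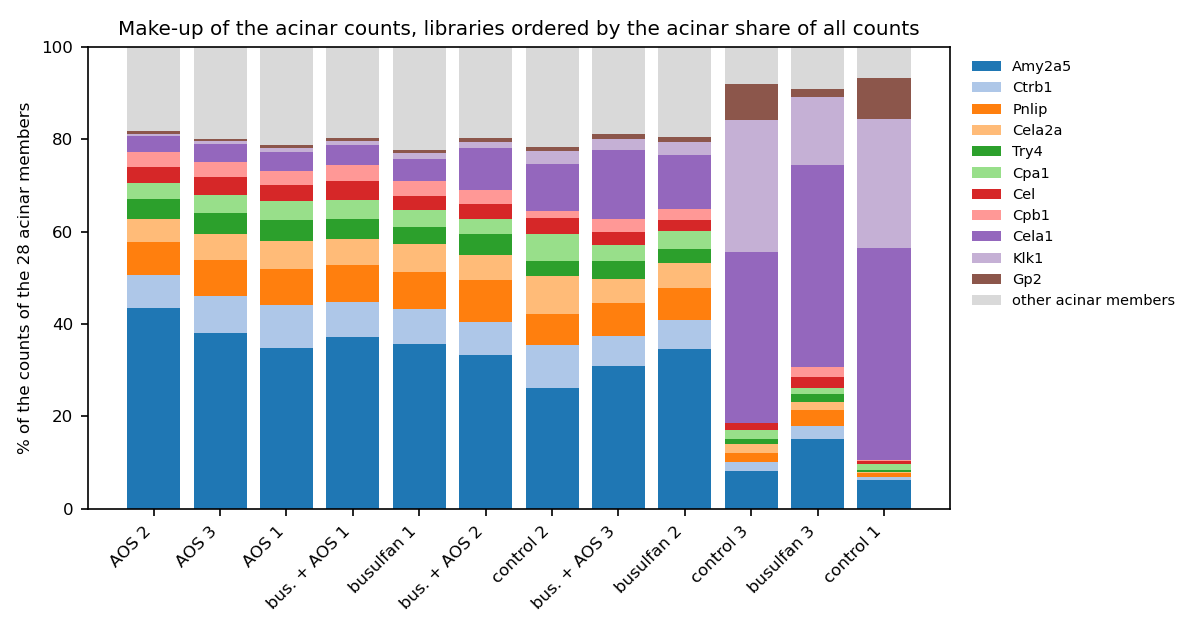
Stacked bars give each gene's percentage of the counts of the 28 acinar genes, in libraries ordered by their acinar share from AOS 2 at the left to control 1 at the right. The make-up is similar in the 9 libraries at the left, where Amy2a5 takes 26.1% to 43.6%, and is dominated by Cela1 and Klk1 in the 3 at the right.

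The islet hormones were found almost only in the AOS libraries. Ins1 on chromosome 19 (52264297 to 52265015) and Ins2 on chromosome 7 (142678656 to 142679726) both code for insulin, and mice carry both genes. Ins1 had 10, 441 and 52 counts in AOS 1, 2 and 3 and 0 in the other 9 libraries. Against a floor of 3 counts over the 3 libraries of a group, it was at least 163-fold higher in AOS than in control, at least 172-fold higher than in busulfan and at least 167-fold higher than in busulfan with AOS. Ins2 had 13, 771 and 89 counts in AOS, 1 each in busulfan 3 and busulfan with AOS 2, and 0 in the other 7, and was at least 284-fold higher in AOS than in control. The 3 AOS libraries lay above all others for both genes, and AOS 2 alone held most of the counts.

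Iapp, which codes for the amyloid peptide released with insulin, had 0, 48 and 7 counts in AOS and 0 elsewhere, at least 17.9-fold higher in AOS than in control, at least 18.8-fold higher than in busulfan and at least 18.2-fold higher than in busulfan with AOS. Gcg, the glucagon gene of alpha cells, had 1, 43 and 3 counts in AOS, 1 in control 1, 2 in busulfan 3 and 1 in busulfan with AOS 1, so AOS 1 did not stand apart. These folds pool libraries that differ widely, and the counting floor does not carry that spread.

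Relative to the acinar counts, Ins2 was not constant. It had 108 counts per 100000 acinar counts in AOS 2 (exact Poisson 95% interval 101 to 116) and 102 in AOS 3 (82.2 to 126), but 28.2 in AOS 1 (15 to 48.2). Library 1 of busulfan with AOS held 37262 acinar counts, close to the 46160 of AOS 1, and no Ins2 count, an upper bound of 9.90 per 100000. Busulfan 1 held 16271 acinar counts and no Ins2 count, an upper bound of 22.7. Busulfan with AOS 2, with 6141 acinar counts, had 1 Ins2 count. Ins1 took 43.5%, 36.4% and 36.9% of the counts of both insulin genes in the AOS libraries, which have 90.7% identical coding bases.

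**Figure D4:**
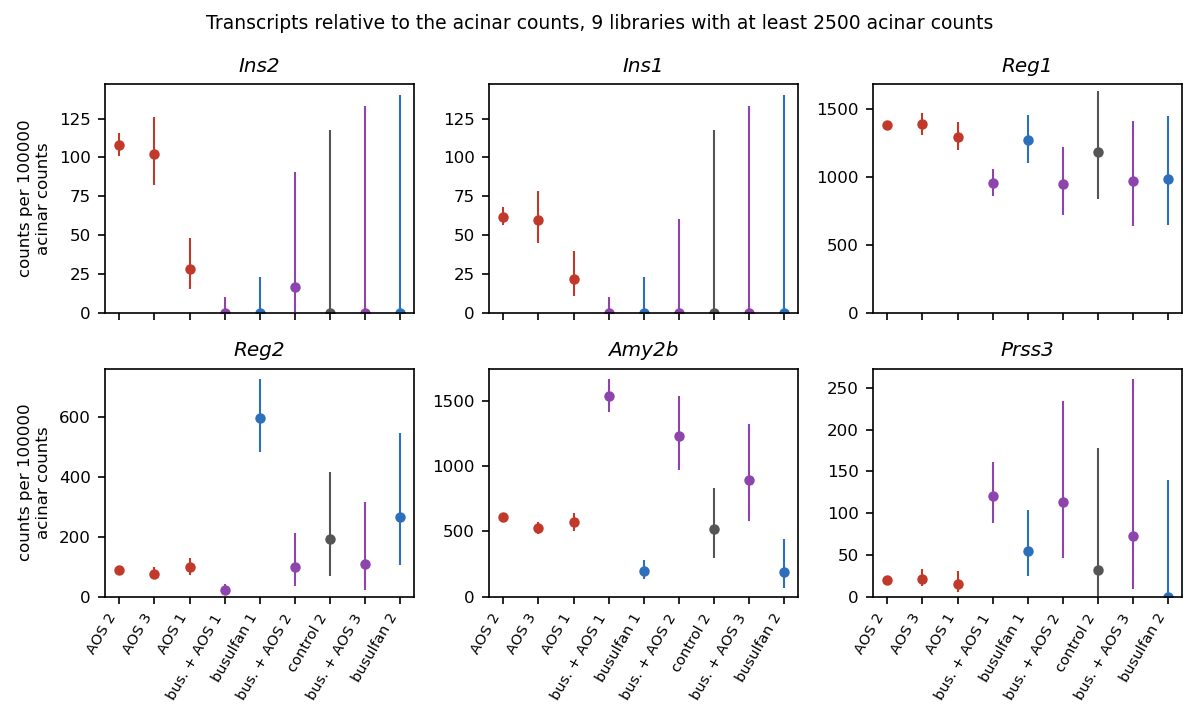
Counts of 6 genes per 100000 acinar counts in the 9 libraries with at least 2500 acinar counts, ordered by acinar share, with exact Poisson 95% intervals. Ins2 is near 100 in AOS 2 and AOS 3 and at 0 of 37262 acinar counts in library 1 of busulfan with AOS, while Reg1 varies from 944 to 1388.

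A second list held 26 other acinar genes, all in the table, of which Aqp12, Cela3a, Ptf1a and Reg3a were at 0 in every control. In AOS against control, 14 of them could be tested and none was called at an adjusted p under 0.05 (0% of all genes). At an unadjusted p under 0.05, 10 were higher (3.02% of all genes). Of these 10, Reg2, Serpini2, Prss3 and Cckar passed the filter on low counts only through their AOS counts, which fixed their direction. The median log2 fold change of the 14 was 3.78. Serpini2, a pancreatic serine protease inhibitor, read 1.60, 34.4 and 4.41 CPM in AOS and 0, 0.191 and 0 in control, and Amy2b, an amylase copy, 16.8, 288 and 28.6 against 0, 1.02 and 0.192. Of the transcription factors that define acinar cells, Ptf1a was found at 0.192, 1.39 and 0.315 CPM in AOS and at 0 in all control and busulfan libraries, and Rbpjl at 0.448, 17.5 and 1.89 against 0.128, 0.191 and 0.0639 in control. Bhlha15, which plasma cells also express, was present in every library at 3.14 to 12.6 CPM.

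Some of these genes departed from the acinar total. Amy2b stood at 568, 610 and 523 counts per 100000 acinar counts in AOS, 1534, 1228 and 891 in busulfan with AOS and 198 in busulfan 1. Prss3, a trypsinogen with 96.4% of coding bases identical to Prss1, stood at 15.2, 20.4 and 20.7 in AOS and at 120, 114 and 72.1 in busulfan with AOS, the last from 2 counts. Reg2, a relative of Reg1, stood at 97.5, 89.9 and 77.0 in AOS, 596 and 266 in busulfan 1 and 2, and 21.5, 97.7 and 108 in busulfan with AOS, where only library 1 lay below the AOS values. Reg1 was 1298, 1380 and 1388 in AOS and 955, 944 and 973 in busulfan with AOS. The values of AOS and busulfan with AOS did not overlap for Amy2b, Prss3 and Reg1. These genes were singled out after their values were seen and not tested. The same lack of overlap was seen for Cela1, Clps, Dmbt1, Gp2, Klk1, Pnliprp1 and Try5. Counting intervals of Amy2b, Prss3 and Reg1 did overlap between AOS and library 3 of busulfan with AOS. For Prss3 that library had 8.73 to 260, against 12.3 to 32.7 in AOS 3. For Reg1 it had 641 to 1415, against 1196 to 1406 in AOS 1. Intervals of library 1 of busulfan with AOS lay apart from those of AOS for Amy2b, Prss3 and Reg1.

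Of 22 other islet genes in the table, only 4 passed the filter on low counts, with none called and none at an unadjusted p under 0.05 in AOS against control and a median log2 fold change of 0.11. The 22 summed to 62.3 to 65.8 CPM in AOS and 49.6 to 66.2 in control. Sst, the somatostatin of delta cells, had 3, 27 and 4 counts in AOS and 0 in the other 9 libraries. Chga, Neurod1 and Slc30a8, which islet cells share, were among 11 of the 22 at 0 in all controls. In AOS, Neurod1 was also near the floor at 0, 0.0662 and 0 CPM, as was Slc30a8 at 0, 0.132 and 0. Chga read 0.255 and 0.256 CPM in busulfan 1 and 2 beside 0, 1.39 and 0.252 in AOS. The 10 markers of pancreatic ducts summed to 22.8 to 31.9 CPM in AOS and 23.1 to 40.0 in control, with none called of 8 tested. At an unadjusted p under 0.05, 1 was higher, Muc1, against 3.02% of all genes. Muc1 passed the filter only through its AOS counts, which fixed its direction.

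Outside these lists, the gene whose profile over the 12 libraries was most like the median acinar profile was 2210010C04Rik, with a root mean square difference of 0.25 on the log2 scale, as close as Pnlip (0.25) and Try4 (0.25). It is a protein-coding gene that read 162, 2292 and 280 CPM in AOS and 0.128, 9.11 and 0.703 in control. It was the only gene outside the lists with a difference under 1, against a median of 3.71 over 15079 genes. The next were Amy2a2, Amy2a3 and Amy2a4 at 1.77. Gdpd1, Zfp979, LOC108167347, Pcdhga2, Nupr1 and Kcnq1, the remaining genes of the first 10, lay at 2.68 to 3.08, farther than any acinar member.

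A test across all genes addressed how AOS, busulfan and both together differed from control and from each other. Of the 32 members, 29 passed the filter on low counts (27 acinar genes, Ins1 and Ins2); Prss1, Gcg and Iapp did not. Of the 29, 25 would pass it in the 9 libraries outside AOS. Try10, Cuzd1, Ins1 and Ins2 passed only through their AOS counts, which fixed their direction. Unless stated, they are left out of the counts at unadjusted p and of separated groups. In AOS against control none of the 29 was called at an adjusted p under 0.05, when 0% of all 15079 genes were called by edgeR, although all 25 were higher at an unadjusted p under 0.05, against 3.02% of all genes. The adjusted p of the members ran from 0.449 to 0.750. DESeq2 called 28 members, among them Try10, Cuzd1 and Ins2, when it called 0.461% of all genes. In all 25 the 3 AOS libraries lay above the 3 controls, against 5.63% of all genes, and in 23 they lay above the other 9, against 1.58%. The median log2 fold change of the 27 acinar genes tested, Try10 and Cuzd1 included, was 7.74 (range 3.68 to 9.36), and that of all genes 0.00. Acinar medians of the other comparisons are over the same 27.

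The fold changes were smaller without AOS 2, the library with the highest acinar share. The log2 fold change of Amy2a5 was then 6.35, that of Pnlip 6.06, that of Reg1 6.13 and that of Cela1 3.36. Adjusted p-values without AOS 2 were 0.459 to 0.531 in edgeR.

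Busulfan alone did not separate the members from control. None of the 29 was called, when 0.471% of all genes were, none had an unadjusted p under 0.05, against 20.6% of all genes, and DESeq2 called none, when it called 5.80% of all genes. The median log2 fold change was 2.29 (range -0.11 to 3.57). Amy2a5 stood at 2.93 ± 1.75 (SE), with a 95% interval of -0.93 to 6.79. Without busulfan 1, the value of Ctrb1 was -0.16 and that of Cpa1 -0.31.

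In busulfan with AOS against AOS alone, none of the 27 acinar genes was called. Ins2 was the only 1 of 29 members called by edgeR (lower, adjusted p = 0.0341), when 5.81% of all genes were called and 3.45% were called lower, so the share of members called was near that of all genes. Ins2 was in the test only through its AOS counts, so its direction was fixed by the filter. Its 873 counts in AOS against 1 in busulfan with AOS give a ratio of 868, with a counting interval of 155 to 34326. The call was lost with only the groups compared, with robust dispersion, with the stricter filter, which removed Ins2, and without AOS 3, busulfan 2, busulfan 3 or any 1 library of busulfan with AOS. Over the alternatives the adjusted p ran from 0.00341 to 0.155. The 25 members that pass the filter without AOS were all lower at an unadjusted p under 0.05, against 13.4% of all genes, and 23 had all 3 libraries below the 3 of AOS, against 17.1%. For Try5 and Pnliprp1, AOS 1 lay below library 1 of busulfan with AOS. The acinar median was -4.16 (range -4.73 to -3.46), and that of all genes 0.00. Cela1 and Klk1 came nearest to the threshold among the acinar genes, at -3.49 ± 0.94 and -3.47 ± 0.93 (SE; adjusted p = 0.0537 and 0.0538, edgeR). DESeq2 called 7 members, among them Cuzd1 and Ins2, whose direction was fixed, when it called 12.4% of all genes. With limma on FPKM, Ins1 and Ins2, again in the test only through AOS, were called at both pseudocounts, when 5.58% and 5.45% of all genes were.

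AOS after busulfan was not told from busulfan alone. None of the 29 members was called, when 3.02% of all genes were, none had an unadjusted p under 0.05, against 21.2%, and DESeq2 called none, when it called 7.93% of all genes. The acinar median log2 fold change was 1.24 (range 0.32 to 1.72). Amy2a5 stood at 1.35 ± 1.64 (SE; 95% interval -2.25 to 4.95), and at -0.67 without library 1 of busulfan with AOS.

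Busulfan with AOS against control gave a median of 3.56 (range 0.21 to 5.07), with none called, when 0.875% of all genes were, and none by DESeq2, when it called 4.82%. At an unadjusted p under 0.05, 8 members were higher, against 7.85% of all genes: Try4, Try5, Cpb1, Pnlip, Pnliprp1, Pnliprp2, Cel and Amy2a5. Another count also came to 8, that of members among all 29, Cuzd1 included, whose 3 libraries all lay above the controls. Of all genes, 10.8% did so.

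The interaction asked whether the difference made by AOS was the same with and without busulfan. The acinar median was -6.46 (range -7.81 to -3.36), which means a smaller AOS difference with busulfan. None of the 29 members was called, when 0.484% of all genes were, while all 25 that pass the filter without AOS were lower at an unadjusted p under 0.05, against 8.48% of all genes, and DESeq2 called 4, when it called 4.51% of all genes. The smallest adjusted p was 0.133. All of these comparisons share groups, so their values are not independent.

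**Figure D5:**
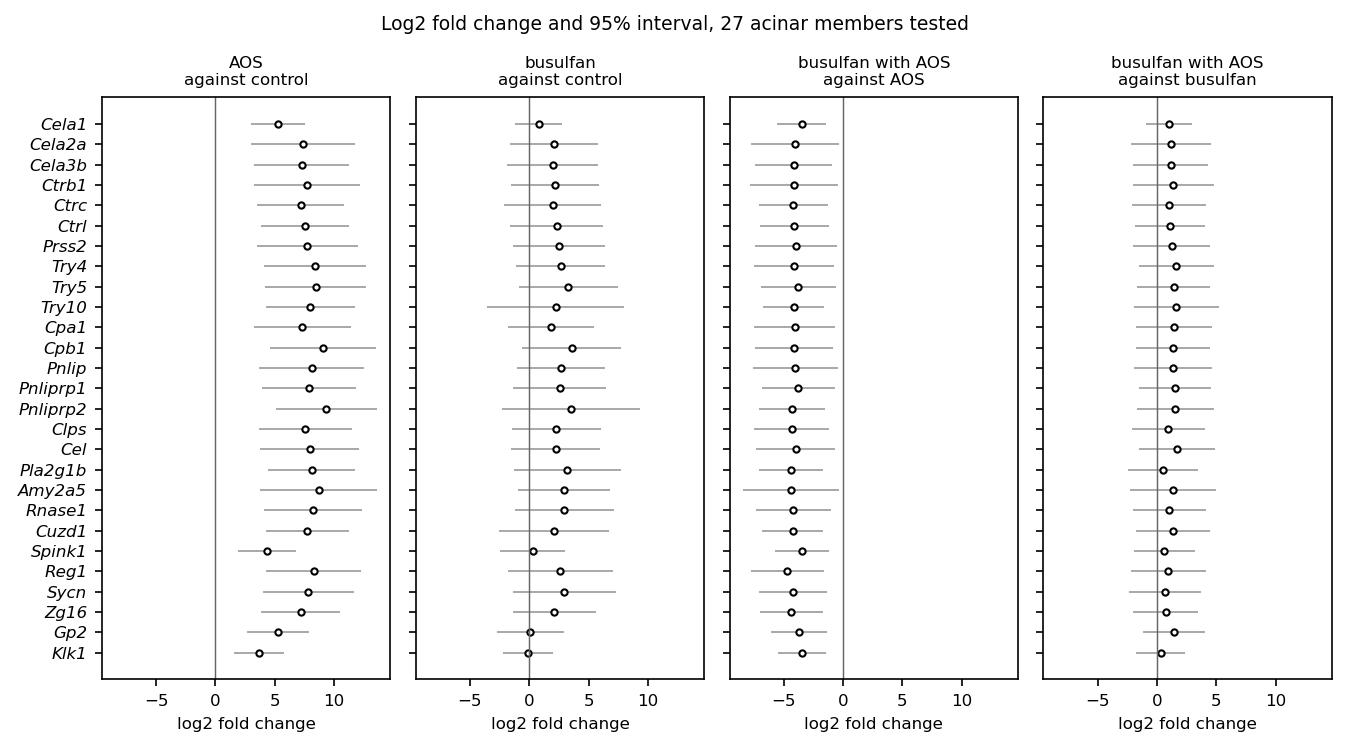
Log2 fold changes with 95% intervals for the 27 acinar genes tested, in 4 comparisons; none passes an adjusted p of 0.05. All 27 lie above 0 in AOS against control and below 0 in busulfan with AOS against AOS, a direction that the filter fixed for Try10 and Cuzd1. Intervals cross 0 in the 2 other comparisons.

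Markers of other tissues were read in the same libraries. The 8 stomach markers in the table summed to 4.67 to 48.8 CPM in AOS and 1.08 to 1.53 in control, of which Tff2, a trefoil peptide, gave 3.71, 47.6 and 6.36 CPM in AOS and 0, 0.255 and 0 in control. Tff2 stood at 101 to 126 counts per 100000 acinar counts in AOS and 135 in busulfan 1, and among the stomach markers Gkn3 was at 0 in AOS. The 9 adipocyte markers summed to 515, 58.4 and 39.8 CPM in controls 1, 2 and 3, 14.9 to 24.3 in AOS, 15.4 to 93.4 in busulfan and 10.0 to 61.9 in busulfan with AOS. In AOS against control none was called, and 8 of 8 tested were lower at an unadjusted p under 0.05. Of these, Retn (0.128, 0.132 and 0 against 6.38, 0.701 and 0.447 CPM) and Plin1 passed the filter only through their control counts, which fixed their direction. The rest were Adipoq, Cfd, Cidec, Fabp4, Car3 and Plin4 (0.64, 0.463 and 0.315 against 22.5, 2.67 and 1.47 CPM), when 2.90% of all genes were lower. Control 1 was the highest of the 12 libraries for all 9 adipocyte markers, which raised their control means. The 15 liver markers summed to 179 to 344 CPM in AOS, 163 to 569 in control and 97.9 to 167 in busulfan with AOS, where Alb, Apoa2 and Apoc3 were called lower than in AOS (3 of 14 tested, when 3.45% of all genes were called lower) and Cps1 was at 0. In that comparison Ttr, a carrier protein of liver and islets, and Cckar, a receptor of acinar cells, were also called lower. Cckar passed the filter on low counts only through its AOS counts, so its direction was fixed. Intestine markers summed to 9.76 to 22.8 CPM over the 12 libraries, mesothelium markers to 73.5 to 160 and markers of lymph node vessels to 254 to 610. None was called in any comparison, but only 1 intestine, 6 mesothelium and 4 lymph node vessel markers were tested. Of all genes, 0% to 5.81% were called by comparison, so these few genes cannot tell whether such tissues differed. Of the 13 spleen markers, 1 was called higher and 2 lower in busulfan with AOS against AOS, when 5.81% of all genes were called. In busulfan with AOS against control, 1 was called higher, when 0.875% of all genes were called. The other comparisons called none of them. The part of these lists in the results on acinar and islet genes was not tested.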

How the data were processed

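RNA of spleen was measured in 12 libraries, 3 per group. Groups follow the labels; the code printed for busulfan alone is not spelled the same way in the submitters' design text, and the 2 spellings were taken as the same group. The members and gene lists were chosen with earlier results of these data known. The authors deposited estimated counts per gene, rounded here to whole numbers before fitting. They also deposited a normalised value, read as FPKM because count over value followed the library total to within 0.336% over 1227 genes. Per the submitters' processing notes, reads were placed on mm10. The sources used here do not give the aligner, counting program, annotation or strandedness, so reads of overlapping genes and near-identical copies cannot be told apart. A further 8 group-average columns were not used.

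Genes kept by filterByExpr (15079) were scaled by TMM (factors 0.965 to 1.04) and fitted with edgeR 4.0.16 (R 4.3.3; glmQLFit, glmQLFTest, 1 mean per group over 12 libraries, 8 residual degrees of freedom), two-sided, with Benjamini-Hochberg adjustment over all genes tested and calls at 0.05. The SE is the fold change divided by the root of F. CPM use TMM-scaled totals. Which members would pass the filter without the AOS libraries was computed after the results were seen. The script was tested on simulated data. Alternatives were DESeq2 1.42.0, limma 3.58.1 on log2(FPKM + 0.1 or 1), other scaling, filters and dispersion, fewer samples, a replicate block and each library left out; tables and plots came from pandas 2.3.3, matplotlib 3.10.9, numpy 2.4.6 and scipy 1.17.1 under Python 3.11.15. Coordinates are RefSeq's (GRCm38.p6), 1-based.

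Values per library are given for the member of each role with the highest mean FPKM, members called in any comparison, the 5 with the smallest p in AOS against control and the islet hormones; further members illustrate ranges. From the other lists, genes called and the 2 with the smallest p in AOS against control were the first choice. Not all of these are named, and others were added after their values were seen. Called spleen markers are given as counts only. Genes outside the lists are the 10 with the smallest root mean square difference from the median acinar profile (centred log2 CPM, prior count 0.5). Same-numbered libraries did not deviate together in every comparison. In AOS against control their correlations were 0.24, 0.08 and 0.26, above the highest with another number (-0.09, 0.04 and -0.0025). In busulfan against control they were -0.05, -0.02 and 0.16, against 0.03, 0.19 and -0.0033. The numbers were therefore not taken as pairing, though pairing is not excluded.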

Additional observations from a re-analysis of the deposited data

How the results depend on the processing

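The count of members called in AOS against control was 28 with DESeq2 and 0 with the other scalings, filters, limma fits, dispersion and sample sets, also when any library was left out (0 to 0). In busulfan with AOS against AOS the count of 1 became 7 with DESeq2, 2 and 2 with limma on FPKM at both pseudocounts, and 0 with the stricter filter, with only the groups compared and with robust dispersion; it ran from 0 to 1 over the libraries left out, with 0 without AOS 3, busulfan 2 or 3, or any library of busulfan with AOS. The interaction gave 4 with DESeq2 and 0 otherwise, and could not be fitted with only 2 groups. The cause of these differences was not tested. The other comparisons gave 0 throughout.

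With the replicate number as a block the count was 1 (Ins2, the only gene called) in AOS against control and 3 (Ins1, Ins2 and Zg16) in busulfan with AOS against AOS. Whether the numbers pair the libraries is not known.

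Of 1177 recomputed fold changes of named members, 12 changed sign, all when a library was left out. Over the libraries left out, busulfan against control ranged from -0.16 to 5.85 for Ctrb1 and from -0.31 to 4.59 for Cpa1. Busulfan with AOS against busulfan ranged from -0.60 to 3.72 for Ctrb1, -0.65 to 3.56 for Cpa1, -0.41 to 3.64 for Pnlip, -0.67 to 3.53 for Amy2a5, -0.90 to 3.42 for Reg1, -0.28 to 3.17 for Cuzd1, -0.30 to 4.12 for Pnliprp2, -0.74 to 2.81 for Pla2g1b and -1.14 to 2.49 for Zg16. With 3 libraries a group and a spread this wide, and with islet counts of 0 to 3 outside AOS, differences among the other 3 groups could not be resolved.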
